A study of Mus musculus with 4 samples.

Results

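The nuclear genes of the respiratory chain and ATP synthase were examined for Pol II peaks in primary mouse osteoblasts. They were taken by symbol as the protein-coding genes on nuclear chromosomes that start with Ndufa, Ndufb, Ndufc, Ndufs, Ndufv, Uqcr, Cox4, Cox5, Cox6, Cox7, Cox8 or Atp5, which gave 92 of 21883 protein-coding genes in the RefSeq table of GRCm38. Complex I had 41 members, complex III 8, complex IV 18 and complex V (ATP synthase) 17. The Ndufa prefix also took 8 assembly factors of complex I, Ndufaf1 to Ndufaf8, which are not subunits and are given apart. Ndufa4 was counted by its symbol with complex I, although its protein is now placed in complex IV.

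The study was a ChIP-seq of RNA polymerase II, in which chromatin bound by the enzyme is recovered with an antibody and sequenced, with 1 Pol II library and 1 input library for each of 2 conditions. The cells were osteoblasts that had been induced in osteogenic medium from mesenchymal stem cells of young mouse bone. The first condition was named WT in its title and carried no agent there, and is called untreated here. The second carried OSS_128167, an inhibitor of the NAD-dependent deacylase SIRT6, although the treatment field of the labels gives this agent for every sample. Its deposited Pol II list is named for SIRT6. Strain, sex, dose and exposure time were not given in the labels, and nothing in them said whether animals were pooled.

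Respiratory chain complexes I, III and IV pass electrons from NADH to oxygen and pump protons across the inner mitochondrial membrane, and complex V uses the proton gradient to make ATP. Most of their subunits are encoded in the nucleus and transcribed by Pol II, while a small core is encoded in mitochondrial DNA and transcribed by the mitochondrial polymerase. Osteoblasts draw on both glycolysis and oxidative phosphorylation while they lay down matrix. Promoters of these genes are known for binding sites of NRF1, of ETS factors such as GABP, and of YY1.

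Both peak lists rest on 1 library, so the conditions could not be tested against each other. The untreated list held 1694 peaks and the OSS_128167 list 40748, and 109 and 6568 of them passed an FDR limit of 0.05. Among 9 osteoblast markers the OSS_128167 list had peaks at 5 (Col1a1, Col1a2, Sparc, Runx2 and Sp7), against 38.4% of genes of similar length, and Alpl, Bglap, Ibsp and Spp1 had none. In the same list 3 of 4 macrophage markers (57.0% for similar length), 2 of 3 endothelial (55.3%), 1 of 3 germ cell (30.3%), 0 of 3 adipocyte (47.1%) and 0 of 4 muscle markers (29.4%) had a peak, with a highest fold of 4.39 at Cd68. With any listed peak, the exact 95% interval of each of these marker lists includes its share. At the FDR limit 5 of 9 osteoblast markers had a peak (55.6%, 21.2 to 86.3), against 11.7% for similar length. That interval lies above the share, and the highest fold was 9.42 at Col1a1. Of the macrophage markers 2 of 4 had such a peak (6.76% to 93.2%, against 19.4%), and the other marker lists had 0. The untreated list had peaks at 2 of 9 osteoblast markers (Col1a2 and Runx2), against 2.21% for similar length. It also had peaks at 1 of 3 adipocyte markers (Pparg), against 3.87%. At the FDR limit both of these marker lists had 0 in the untreated list. A fold here is the authors' enrichment of a peak over background within its own list, and folds were not compared between lists. The part of other cell types in the peaks described below was not tested.

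No respiratory chain gene had a peak in the untreated list. The count was 0 of 92 within 1000 bp of a gene or inside it. This allows a share of up to 3.26% by a limit of 3 counts, and up to 3.93% by the exact interval. In that list 2.3% of protein-coding genes had a peak, and 0.863% of those of similar length did, which corresponds to 0.794 genes among 92. At the FDR limit of 0.05 the count was again 0, where 0.133% of protein-coding genes had a peak. With fewer than 1 gene to be found at the rate for similar lengths, a shortfall at the members was not detectable. Within 1000 bp of a start site 0 of the 75 members of known start had a peak, against 0.189% of protein-coding genes. The untreated peak nearest to any member lay 9968 bp outside Ndufa9, an accessory subunit of complex I, and the median distance over the members was 1135 kb.

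In the OSS_128167 list a peak was listed at 23 of 92 members (25%, exact 95% interval 16.6 to 35.1). Among all protein-coding genes 37.8% had one. Respiratory chain genes are short, with a median length of 7107 bp against 17170 bp for protein-coding genes. The share among genes of similar length was 24.4%, or 22.4 genes among 92, so the members' count lay at the level of their length class. Similar length means that each member was set beside all protein-coding genes of its own length bin, of 10 bins with equal numbers of genes. Intervals cover the counting of genes only, and neighbouring genes are not independent.

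**Figure D1:**
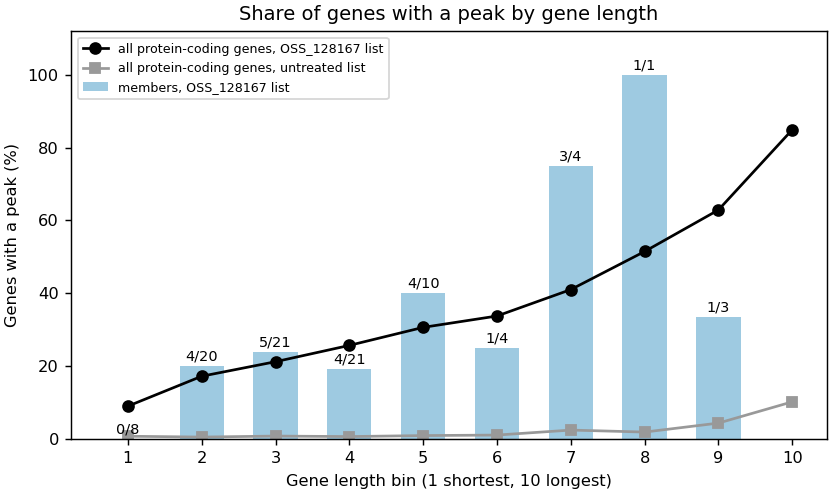
Share of genes with a peak within 1000 bp or inside (vertical axis, percent) by gene length bin (horizontal axis, 1 shortest to 10 longest), for all protein-coding genes in the OSS_128167 list (black line) and the untreated list (grey line) and for the respiratory chain members in the OSS_128167 list (bars, with members with a peak over members in the bin). The black line goes from 8.95% in the first bin to 84.9% in the last, and 62 of the 92 members fall in bins 2 to 4, where 13 have a peak.

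At the FDR limit 12 of the 92 members had a peak (13.0%, 6.93 to 21.7), where 11.5% of all protein-coding genes and 8.51% of those of similar length had one. The interval of the members includes both shares. These 12 were Ndufb10, Ndufa12, Ndufs7, Ndufa8 and Ndufb2 of complex I, Uqcrc1 of complex III, Atp5a1, Atp5e and Atp5g2 of complex V, and the assembly factors Ndufaf3, Ndufaf6 and Ndufaf7. The 23 members with a peak held 28 peaks in all, with 1 peak at 18 genes and 2 at 5 genes. The highest fold per gene ranged from 2.30 to 6.17 with a median of 3.42, against a median of 3.10 for the 8262 protein-coding genes with a peak. In 17 of the 23 the fold lay above the median of the genes with a peak in the same length bin.

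**Figure D2:**
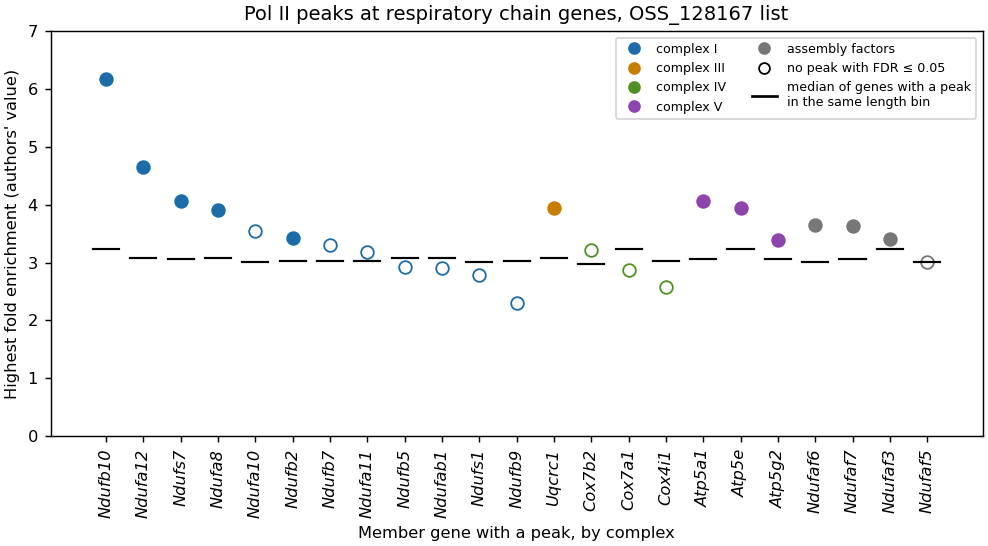
Highest fold enrichment (vertical axis, the authors' ratio) of each of the 23 members with a peak in the OSS_128167 list, ordered by complex (horizontal axis). Filled points mark genes with a peak that passes the FDR limit of 0.05, open points the others, and short black lines the median of all genes with a peak in the same length bin. Ndufb10 at 6.17 and Ndufa12 at 4.66 are the highest, and the 3 complex IV genes are open points at 3.23 or lower.

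Complex I held most of the members with a peak, with 12 of 41 (29.3%, 16.1 to 45.5) against 25.2% for similar lengths. Complex III had 1 of 8 (12.5%, 0.316 to 52.7, against 23.0%), complex IV 3 of 18 (16.7%, 3.58 to 41.4, against 21.7%) and complex V 3 of 17 (17.6%, 3.8 to 43.4, against 22.4%). The assembly factors had 4 of 8 (50%, 15.7 to 84.3, against 31.7%). Complex IV had, at the FDR limit, 0 of 18. This allows a share of up to 16.7% by a limit of 3 counts, and up to 18.5% by the exact interval. At the rate for similar lengths 1.44 genes would have had such a peak. Complex I had 5 of 41 (against 3.58 genes for similar length), complex III 1 of 8 (0.696) and complex V 3 of 17 (1.38). The assembly factors had 3 of 8 (0.730). Within 1000 bp the interval of each complex includes the share for its length, with any peak and at the FDR limit. Differences between complexes were not tested.

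**Figure D3:**
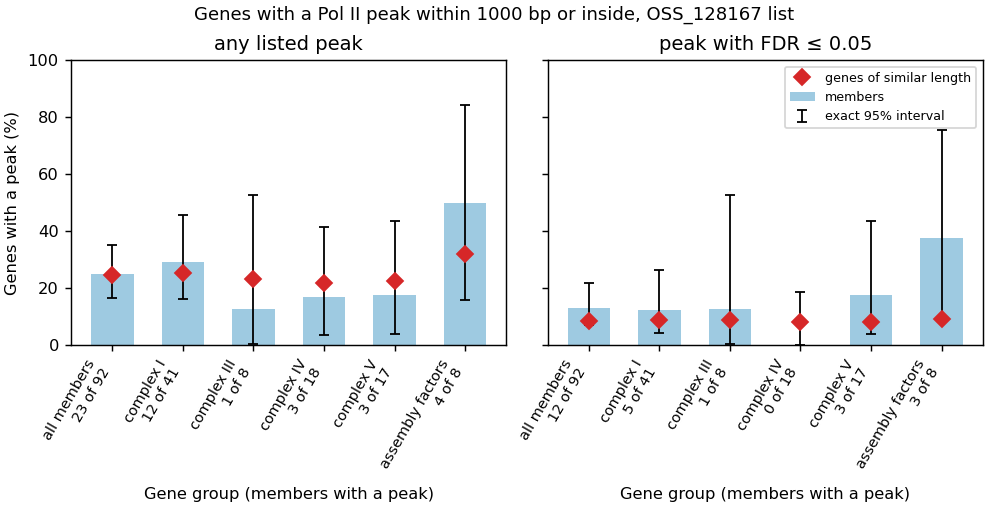
Share of genes with a peak within 1000 bp or inside in the OSS_128167 list (vertical axis, percent) for all members and for each complex (horizontal axis, with counts), for any listed peak on the left and for peaks that pass the FDR limit of 0.05 on the right. Bars are the members, lines their exact 95% intervals and red diamonds the share among genes of similar length, which is 24.4% on the left and 8.51% on the right for all members.

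Promoter windows are shown for the 4 subunit genes with a peak within 1000 bp of a known start, since these are the starts that the position counts rest on. The peaks of Ndufb10 and Ndufa12 reach into the window, and those of Cox7a1 and Atp5e begin past its end. Each runs from 250 bases before to 50 after the start, from RefSeq with build GRCm38.p6, printed 5′ to 3′ on the strand of the gene. Capitals mark matches to the motifs searched, which were NRF1 (GCGCATGC), ETS (CCGGAAG), YY1 (GATGGCGG), the GC box (GGGCGG) and the TATA box (TATAAA), each on both strands. None of these strings contains another.
Ndufb10, chr17:24724374-24724673, minus strand: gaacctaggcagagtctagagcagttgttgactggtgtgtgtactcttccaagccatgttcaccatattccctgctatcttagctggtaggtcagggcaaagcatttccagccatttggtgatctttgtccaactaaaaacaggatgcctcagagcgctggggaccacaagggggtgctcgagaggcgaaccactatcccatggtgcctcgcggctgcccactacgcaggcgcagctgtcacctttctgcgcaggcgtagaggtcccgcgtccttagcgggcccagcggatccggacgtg
Ndufa12, chr10:94198785-94199084, plus strand: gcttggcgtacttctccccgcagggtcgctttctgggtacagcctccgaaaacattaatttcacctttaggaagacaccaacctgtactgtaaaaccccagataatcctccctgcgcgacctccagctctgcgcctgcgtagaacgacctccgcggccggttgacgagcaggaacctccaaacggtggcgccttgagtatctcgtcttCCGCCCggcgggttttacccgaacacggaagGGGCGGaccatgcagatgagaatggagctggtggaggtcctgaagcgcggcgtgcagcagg
Cox7a1, chr7:30183921-30184220, plus strand: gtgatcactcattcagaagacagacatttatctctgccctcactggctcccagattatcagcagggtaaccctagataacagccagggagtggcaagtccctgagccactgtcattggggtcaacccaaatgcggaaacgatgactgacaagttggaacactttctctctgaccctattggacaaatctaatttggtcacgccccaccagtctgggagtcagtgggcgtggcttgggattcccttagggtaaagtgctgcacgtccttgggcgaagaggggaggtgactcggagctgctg
Atp5e, chr2:174464052-174464351, minus strand: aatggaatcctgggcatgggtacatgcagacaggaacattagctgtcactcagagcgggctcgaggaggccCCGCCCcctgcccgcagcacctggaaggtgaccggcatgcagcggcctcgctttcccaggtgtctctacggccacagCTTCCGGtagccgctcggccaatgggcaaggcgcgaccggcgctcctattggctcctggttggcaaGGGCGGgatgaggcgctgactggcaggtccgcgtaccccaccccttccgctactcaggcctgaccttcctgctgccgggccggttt
Ndufa12 held a GC box at 42 bases before the start on the opposite strand and another at 11 bases before it. Atp5e held a GC box at 179 bases before the start and an ETS match at 102, both on the opposite strand. Another GC box lay 36 bases before the start on the strand of the gene. In the windows of Ndufb10 and Cox7a1 none of these letter strings was found.

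Ndufb10, an accessory subunit of the membrane arm of complex I, was the member covered over most of its length. In the untreated list it had no peak. In the OSS_128167 list 2 peaks covered 93.2% of its 2364 bp on chromosome 17, where the median gene with a peak in its length bin was covered over 11.0%. The first, of 1519 bp from 24723052 to 24724570, spanned the start from 147 bases before to 1371 bases after it, with a fold of 6.17, a pileup of 27 and an FDR of 7.3e-12. The second, of 4223 bp from 24718668 to 24722890, crossed the 3′ end with a fold of 4.98 and an FDR of 1.54e-10. That peak also lay over Rps2, a ribosomal protein gene on the far side of the 3′ end, and within 1000 bp of Rnf151 and of the small RNA host Snhg9. The promoter peak lay within 1000 bp of no other annotated gene.

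Ndufa12, another accessory subunit of complex I, had the highest fold after Ndufb10. Its single peak, of 416 bp on chromosome 10 from 94198903 to 94199318, ran from 132 bases before to 283 after the start, with a fold of 4.66, a pileup of 15 and an FDR of 6.4e-05. Among the 738 genes with a peak in its length bin, 95.7% had a lower highest fold. The rest of its 22406 bp held no listed peak.

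Of the other complex I genes, 3 more had a peak that passed the FDR limit, inside the gene, across its 3′ end or past it. Ndufs7, a core subunit that carries an iron-sulfur cluster, had a peak across its 3′ end with a fold of 4.06 and an FDR of 0.00191. Ndufa8 had one 700 bp past its 3′ end (fold 3.91, FDR 0.00520). Ndufb2 had one inside the gene, 5085 bp after the start (fold 3.43, FDR 0.0169). Ndufa10 (fold 3.55, FDR 0.0525) and Ndufb7 (3.31, FDR 0.0710) lay just outside the FDR limit, and Atp5a1 with its weaker peak (3.27, FDR 0.0428) and Atp5g2 (3.39, FDR 0.0421) just inside it.

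Among complex I genes with weaker peaks, Ndufa11 had a fold of 3.19 (FDR 0.134) and Ndufb5 2.93 (FDR 0.155). Ndufab1, the mitochondrial acyl carrier protein, had 2.90 (FDR 0.290), Ndufs1, the largest core subunit, 2.78 (FDR 0.377), and Ndufb9 2.30 (FDR 0.411). The peak of Ndufb9 crossed a boundary of the gene and lay within 1000 bp of Tatdn1. Without a peak in either list were 29 complex I members, among them the core subunits Ndufv1, Ndufv2, Ndufs3 and Ndufs8. Ndufs4, the longest complex I subunit gene at 100300 bp, had none either, where 62.9% of the genes in its length bin had one.

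Complex III was represented by Uqcrc1 alone, which encodes the first core protein of the complex. Its peak of 292 bp lay 8033 bp after the start with a fold of 3.95 and an FDR of 0.0120. Uqcrfs1, the Rieske iron-sulfur protein, and Uqcrc2, Uqcrb, Uqcrh, Uqcrq, Uqcr10 and Uqcr11 had no peak within 1000 bp.

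Complex IV, cytochrome c oxidase, has widely expressed and tissue-restricted forms of several subunits, and the 3 genes with a peak included forms of both kinds. Cox4i1, the widely expressed form of its subunit, had a peak 437 bp outside the gene (fold 2.58, FDR 0.503), and Cox4i2, the form known from lung, had none. Cox7a1, the heart and muscle form, had a peak from 54 to 522 bases after the start (fold 2.87, FDR 0.377), while the widely expressed Cox7a2 and the supercomplex factor Cox7a2l had none. Cox7b2, known from testis, had a peak 29509 bp inside a gene of 105383 bp (fold 3.23, FDR 0.122), and Cox7b had none. Neither form had a peak for Cox6a1 and Cox6a2, for Cox6b1 and Cox6b2, for Cox8a, Cox8b and Cox8c, or for Ndufa4 and Ndufa4l2. Cox6c, Cox5a, Cox5b and Cox7c also had none within 1000 bp. None of the 3 complex IV peaks passed the FDR limit. The 4 muscle markers Myh6, Myh7, Acta1 and Ckm had no peak, against 1.18 genes for similar length. Of the 3 germ cell markers 1 had a peak, Dazl (fold 2.89, FDR 0.183), against 0.910 genes. The cell source of the complex IV peaks was not tested.

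In complex V the genes with a peak encode parts of the catalytic head and the rotor. Atp5a1, the alpha subunit of the head, had 2 peaks, one inside the gene and one of 1727 bp that began 528 bp outside it (fold 4.06, FDR 0.00191). Atp5e, the epsilon subunit of the central stalk, had a peak 893 bp past the 3′ end (fold 3.95, FDR 0.0120) and another from 515 to 740 bases after the start (fold 2.72, FDR 0.381). Atp5g2, one of the genes for subunit c of the membrane ring, had a peak 3676 bp after the start. Atp5b, the catalytic beta subunit, and Atp5c1, the gamma subunit of the stalk, had none within 1000 bp. Neither did the subunit c genes Atp5g1 and Atp5g3.

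Of the 8 complex I assembly factors 4 had a peak. Ndufaf7, a mitochondrial methyltransferase, had 2 interior peaks, the higher with a fold of 3.63 and an FDR of 0.00852. Ndufaf6 had one 420 bp outside the gene (3.65, FDR 0.0281). Ndufaf3 had one 379 bp past its 3′ end (3.42, FDR 0.0179), which lay over Impdh2, and one upstream of its start, which lay over Dalrd3, so neither peak belonged to Ndufaf3 alone. Ndufaf5 had an interior peak (3.01, FDR 0.183), and Ndufaf1, Ndufaf2, Ndufaf4 and Ndufaf8 had none within 1000 bp. Over all members, 4 of the 28 peaks lay within 1000 bp of another protein-coding gene.

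Peaks at start sites were few. A start and strand were matched in RefSeq for 75 of the 92 members, and 5 of them had a peak within 1000 bp of a start (6.67%, 2.20 to 14.9), namely Ndufb10, Ndufa12, Cox7a1, Atp5e and Ndufaf3. Among all 17491 protein-coding genes of known start 5.7% had one, and 7.31% of those of similar length. Only 2 of 75 had one that passed the FDR limit, against 2.43% of all and 3.25% of similar length. Within 1000 bp of the 3′ end 6 of 75 had a peak (8%, 2.99 to 16.6), against 11.3% of all and 12.2% of similar length. With the FDR limit this was 5 of 75, against 4.04% of all and 4.90% of similar length. The members' intervals include the shares for similar length in both windows.

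Past the 3′ end, where Pol II is known to run on before it leaves the template, peaks were more frequent than before the start, at the members and in general. These 5 kb regions were not planned and were added after the count at 5000 bp, given below, had been seen. In the 5 kb past the 3′ end 20 of 75 members had a peak (26.7%, 17.1 to 38.1), where the share was 20.4% for protein-coding genes and 19.8% for similar length. In the 5 kb before the start 9 of 75 had one (12%, 5.64 to 21.6), against 8.01% and 9.37%. At the FDR limit these counts were 9 and 3 of 75, where 7.42% and 2.48% of all protein-coding genes had such a peak. By complex, 8 of 35 members of complex I had a peak past the 3′ end (against 7.12 genes for similar length), 1 of 5 of complex III (0.992), 3 of 13 of complex IV (2.45) and 2 of 7 assembly factors (1.38). At the FDR limit these were 4 (against 2.72 genes for similar length), 0 (0.399), 0 (0.997) and 1 (0.510). Complex V had 6 of 15, against 2.90 genes for similar length, and 4 of 15 at the FDR limit (26.7%, 7.79 to 55.1), against 7.48%. These were Atp5c1 (fold 3.66, FDR 0.00487), Atp5e, Atp5o (3.59, FDR 0.04997), Atp5md (3.32, FDR 0.0246), Atp5j2 (2.44, FDR 0.676) and Atp5j (2.20, FDR 0.676). The peaks near Atp5md and Atp5j lay over the neighbouring genes Taf5 and Jam2. Without peaks over any protein-coding gene complex V had 4 of 15 (26.7%, 7.79 to 55.1, against 10.8% for similar length). At the FDR limit it then had 3 of 15 (20%, 4.33 to 48.1, against 3.71%). Differences between complexes were not tested here either.

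**Figure D4:**
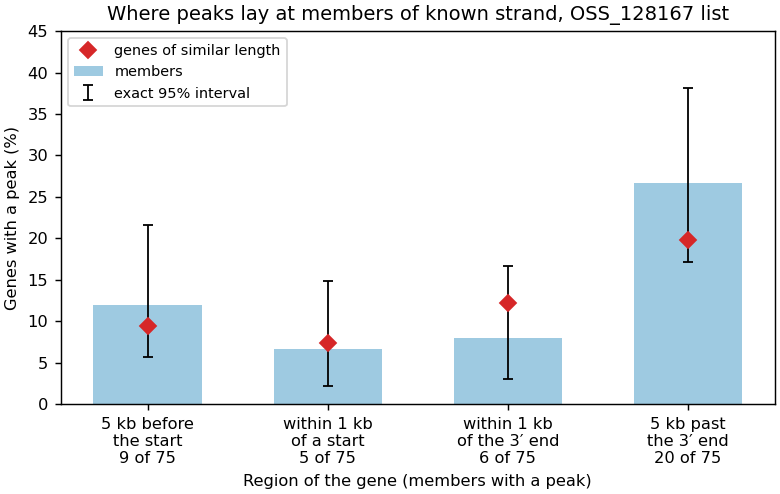
Share of the 75 members of known strand with a peak in the OSS_128167 list (vertical axis, percent) in 4 regions of the gene (horizontal axis, with counts). Bars are the members, lines their exact 95% intervals and red diamonds the share among genes of similar length. The regions are the 5 kb before the start, 1000 bp to either side of a start or of the 3′ end, and the 5 kb past it. Their widths differ, so each bar is to be read beside its own diamond. The bar past the 3′ end stands highest at 26.7%, with a diamond at 19.8%, and the bar at the start lowest at 6.67%.

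Widening the window from 1000 to 5000 bp raised the members' count to 43 of 92 (46.7%, 36.3 to 57.4), while 46.7% of all protein-coding genes and 34.9% of those of similar length had a peak in it. At the FDR limit the count was 19 (20.7%, 12.9 to 30.4), against 15.6% of all and 12.5% of similar length. At this width both intervals lie above the share for similar length. By complex, only that of complex V at the FDR limit did so (6 of 17, 35.3%, 14.2 to 61.7, against 12.2%). Complex IV had 0 of 18 there, against 11.7%. Differences between complexes were not tested at this width. Respiratory chain genes lie close to other genes. The nearest other protein-coding gene was within 1000 bp for 55 of 92 members (59.8%) and for 34.7% of genes of similar length, and within 5000 bp for 75 members (81.5%) and for 52.8%. Peaks over any protein-coding gene, the member itself included, were then left out. With these left out, 12 of 75 members had a peak in the 5 kb past the 3′ end (16%, 8.55 to 26.3), against 11.3% for similar length. In the 5 kb before the start 4 of 75 then had one (5.33%, 1.47 to 13.1), against 5.23%. Both intervals include the share for similar length. At the FDR limit these counts were 4 of 75 past the 3′ end, against 3.91%, and 0 of 75 before the start, against 1.09%. Among the peaks left out were those at the starts of Ndufb10 and Ndufa12, which lay over no other protein-coding gene. These counts therefore do not isolate the part of neighbouring genes in the count at 5000 bp, which was not tested.

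Promoter windows of the members were searched for the same strings, and those of NRF1, ETS factors and YY1 were each found in a larger share of them than of protein-coding windows, with intervals above that share. The NRF1 letters were found in 11 of 80 member windows (13.8%, 7.07 to 23.3), against 2.71% of all 32851 windows in the table and 3.51% of those of protein-coding genes. They were in the windows of Uqcrc1, Uqcr11, Cox6a1, Atp5g2, Atp5k, Atp5l, Ndufa6, Ndufa8, Ndufa11, Ndufaf4 and Ndufaf5. The ETS letters were in 17 of 80 (21.3%, 12.9 to 31.8), against 8.86% and 11.6%, and the YY1 letters in 8 of 80 (10%, 4.42 to 18.8), against 1.70% and 2.27%. By complex these counts were small, and differences between complexes were not tested. The ETS letters were in 4 of 37 complex I windows (10.8%) and in 6 of 18 of complex V. Complex I held 6 of the 8 YY1 windows, of which both windows of Ndufa7 are a pair from 1 gene, and complexes III and IV held 0. The GC box was in 34 of 80 (42.5%, against 35.7% and 46.2%) and the TATA box in 9 of 80 (11.3%, against 13.6% and 12.6%). Median GC content was 57.5% in the member windows and 56.3% in those of protein-coding genes. A match is a string of letters and not a bound site.

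Few windows allow a count of these strings beside a peak. Of the 5 member windows with a peak within 1000 bp of the start, 0 held the NRF1 letters, 1 the ETS letters and 0 the YY1 letters. Of the 75 without one, 11, 16 and 8 did. Among the 1136 windows of protein-coding genes with such a peak the NRF1 letters were in 4.05%. With 5 windows no relation between motif and peak could be read.

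Other nuclear genes of mitochondrial function are given by list, in the OSS_128167 list. Whether their peaks also lay near other genes was not examined, here or for the regulators and cytosolic ribosomal protein genes below. Complex II, succinate dehydrogenase, had 3 of 4 genes with a peak (19.4% to 99.4%, against 33.5% for similar length). These were Sdhd (fold 3.31, FDR 0.0710), Sdha (2.52, FDR 0.676) and Sdhb (2.11, FDR 0.966). At the FDR limit it had none (interval up to 60.2%, against 10.1% for similar length). Electron carriers had 2 of 6 (against 31.7%), Etfdh and Etfa, and Cycs, cytochrome c, had none. Assembly factors outside the prefixes had 15 of 38 (39.5%, against 33.8%), and 6 at the FDR limit (15.8%, 6.02 to 31.3, against 10.8% for similar length), led by Cox20 (4.88), Ttc19 (4.71) and Cox15 (3.81). Citrate cycle genes had 7 of 16 (43.8%, against 39.9%). At the limit they had 1 (6.25%, 0.158 to 30.2, against 11.6% for similar length), Idh3b (3.84, FDR 0.00404). Mitochondrial ribosomal protein genes had 22 of 78 (28.2%, against 26.2%), and 5 at the limit (6.41%, 2.11 to 14.3, against 9.03% for similar length), led by Mrps18b (6.67), Mrpl24 (4.08) and Mrps25 (3.69).

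Of 15 regulators of mitochondrial transcription and biogenesis 10 had a peak (66.7%, 38.4 to 88.2, against 43.0% for similar length), and 5 at the FDR limit (33.3%, 11.8 to 61.6, against 12.9% for similar length). These 5 were Polg2 (6.69), Yy1 (4.31), Ppargc1a (3.95), Gabpb1 (3.87) and Pprc1 (3.62). Ppargc1a, the coactivator PGC-1 alpha, is 661605 bp long and held 14 peaks. Nrf1 had 1 peak with an FDR of 0.377, and Gabpa and Tfam had none. In the untreated list 1 gene of these lists had a peak, Ogdh of the citrate cycle (fold 2.97, FDR 1). That is 1 of 16 citrate cycle genes, against 2.06% for similar length.

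Cytosolic ribosomal protein genes, which are short and highly transcribed in growing cells, are given for scale, a comparison added after their values were seen. A peak that passed the FDR limit was listed at 45 of 76 (59.2%, 47.3 to 70.4), against 7.78% for similar length, and 12 of 92 respiratory chain genes did. Within 1000 bp of a start 21 of 56 ribosomal protein genes had a peak (37.5%, 24.9 to 51.5, against 9.41% for similar length), and 5 of 75 respiratory chain genes did, against 7.31%. Rpl3 had the highest ribosomal fold at 8.32, and Ndufb10 the highest among the respiratory chain genes at 6.17. The difference between the groups was not tested.

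**Figure D5:**
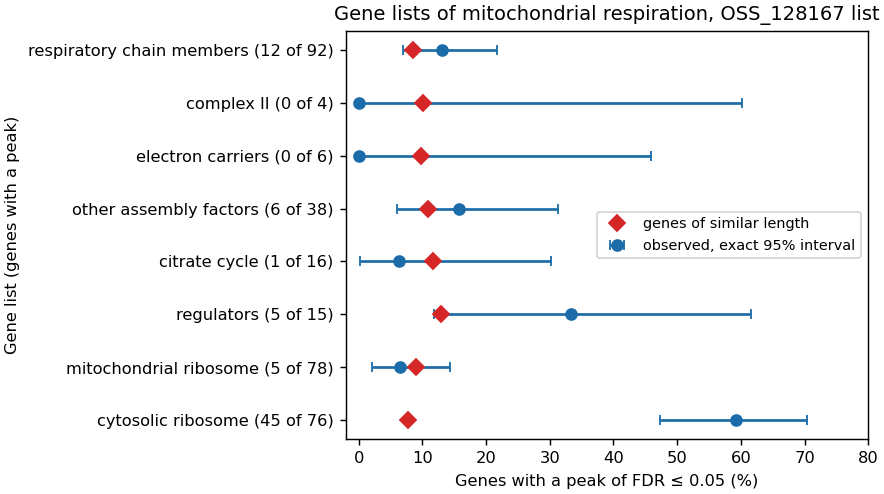
Share of genes with a peak that passes the FDR limit of 0.05 in the OSS_128167 list (horizontal axis, percent) for the respiratory chain members and other lists (vertical axis, with counts). Points are the observed shares with exact 95% intervals and red diamonds the share among genes of similar length. The cytosolic ribosome stands at 59.2% with its diamond at 7.78%, and the respiratory chain members at 13.0% with theirs at 8.51%.

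The mitochondrial chromosome, which encodes 13 further protein-coding genes, held 0 peaks in both lists.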

How the data were processed

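Pol II peak lists of 2 ChIP-seq libraries were used, and no value was taken from the 2 inputs. The submitters' processing notes name fastp, BWA and mm10. Which peak caller made the lists, and whether it used the inputs, is not given in the sources used here. Per the file headers, each deposited list gives positions counted from 1, the pileup (a height of signal), the fold over background (a ratio) and, for significance, a p-value with its FDR. Depth is unknown.

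A gene had a peak when at least 1 bp of it reached the gene widened by 1000 bp. Genes and promoter windows came from RefSeq (GRCm38.p6), which is the assembly behind mm10. Start sites were used for 75 of 92 members. Similar length was set by 10 bins. Intervals are exact (Clopper-Pearson, 95%) and cover counting error only. A count of 0 was given the limit of 3 counts.

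Members and lists were chosen with earlier results of these data known. Named were all members with a peak that passes the FDR limit of 0.05 or of an isoform pair, up to 4 per complex and 3 per other list by fold, and printed promoters up to 2 per complex. Other genes and the motif holders were named after their values were seen. The 5 kb regions beside the genes and the distances to neighbouring genes were added after the count at 5000 bp had been seen. Alternatives changed the window, peak position, threshold, neighbours and length bins. Tested on simulated data, the counts recovered 50 of 50 planted peaks. The tools were scipy 1.17.1, pandas 2.3.3, numpy 2.4.6 and matplotlib 3.10.9 in Python 3.11.15.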

Additional observations from a re-analysis of the deposited data

How the results depend on the processing

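The count of 23 of 92 members with a peak in the OSS_128167 list became 43 with a window of 5000 bp, 12 at the FDR limit of 0.05, and, in alternatives chosen after seeing the data, 13 within 1000 bp of either gene boundary and 11 at that limit without peaks near another protein-coding gene. It stayed within 1.5 times of 23 with windows of 0 and 500 bp, the peak centre and a fold of at least 3. The same held for peaks not shared with another protein-coding gene, and without assembly factors. At 0 bp it was 19 (20.7%, against 20.1% for similar length and 34.4% of all protein-coding genes). At a fold of at least 3 it was 17 (18.5%, 11.1 to 27.9, against 13.4% and 21.3%). The counts of 13 and 11 and the count of unshared peaks have no share of other genes beside them. The share among genes of similar length, 24.4%, became 22.2% at 500 bp, 34.9% at 5000 bp and 8.51% at the FDR limit. The count of 5 at start sites became 2 at that limit. In the untreated list the members' count was 0 under each of these except the last of those chosen after seeing the data, which was not run there, and the share for similar length, 0.863%, became 1.31% at 5000 bp and 0.146% at the FDR limit. The highest folds of Atp5a1 and Atp5e fell to 3.27 and 2.72 with windows of 0 or 500 bp or the peak centre. No paired analysis was possible because each condition had 1 library and the labels carry no replicate numbers.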

Other observations

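Of 19 annotated pseudogenes that carry the member prefixes, 1 had a peak within 1000 bp in the OSS_128167 list. At the FDR limit 0 had one, and 0 had one in the untreated list. No share over all pseudogenes was set beside these counts, so whether they are usual cannot be read.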
